A study of Mus musculus with 6 samples.

Results

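The genes described here encode the proteins of the cytosolic ribosome, the particle that translates messenger RNA outside the mitochondria. They were chosen by symbol: Rpl or Rps followed by a number, Rplp0 to Rplp2, and Rpsa, without the Rps6k kinases, on probe sets that name 1 gene. The rule found 35 genes (17 of the large and 18 of the small subunit, paralogous copies included) on 49 probe sets, out of 8251 genes named in this way. No measured value entered the choice of genes by symbol, though the probe set that stands for each gene was its brightest on average.

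The signals come from whole metanephroi, the embryonic kidneys, of E14.5 mice, measured on 6 Affymetrix MG_U74Av2 arrays. The Wnt4 mutant group held 2 pools with the Wnt4tm1Amc allele, of 8 to 10 kidneys from 4 to 5 embryos each, with the strain labelled 129. The wild-type group held 4 pools of 2 kidneys each, with the strain labelled CD-1. Yet the protocol given for all 6 samples describes matings of CD-1 mice, the sex is not known from the labels, and no other treatment is named. Genotype, strain label and pool size cannot be told apart. The labels call each small pool a single biological replicate. How many embryos gave a wild-type pool is not stated there. The study set out to find genes of the renal vesicle and its derivatives, which mutant kidneys lack according to the labels. Ribosomal protein genes serve here as a check on how the arrays were scaled.

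A cytosolic ribosome is built from ribosomal RNA and a fixed set of proteins, nearly all present in a single copy per particle, so cells make the proteins in matched amounts. Their messenger RNAs are among the most abundant in growing cells, and most start with a run of pyrimidines, the terminal oligopyrimidine tract, through which mTOR signalling sets their translation. Because every growing cell needs them, some are used as reference transcripts. Loss of single members can cause disease, as in Diamond-Blackfan anaemia in humans.

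Promoters of these genes are shown first, because the members are known for shared start-site sequence. RefSeq windows (GRCm38.p6, 250 bases before to 50 after each transcript start) were held for 28 of the 35 genes, as 37 windows, and for 32851 windows in all. The windows below run from 40 bases before to 20 from the start site on, 5′ to 3′ on the gene's strand. Capitals mark a tract of C followed only by C or T that begins at the start site. Rps19 and Rpl22 are shown because they differed between the groups (values below), and Rps18, Rps10 and Rps27 as 3 of the 5 windows with such a tract of at least 4 bases after the C.
Rps19, chr7:24884552-24884611, plus strand: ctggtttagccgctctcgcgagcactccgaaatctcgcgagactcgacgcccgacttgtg
Rpl22, chr4:152325686-152325745, plus strand: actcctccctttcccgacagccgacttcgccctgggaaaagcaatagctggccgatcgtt
Rps18, chr17:33955646-33955705, minus strand: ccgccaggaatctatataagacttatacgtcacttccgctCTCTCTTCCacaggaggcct
Rps10, chr17:27635225-27635284, minus strand: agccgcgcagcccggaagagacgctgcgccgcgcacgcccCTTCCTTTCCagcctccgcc
Rps27, chr3:90213629-90213688, minus strand: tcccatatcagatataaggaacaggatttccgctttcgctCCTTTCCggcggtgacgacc

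RefSeq listed 3 windows for Rps19 and 2 for Rpl22, and the first of each is printed. The tract at the annotated start was found in 5 of the 37 member windows (13.5%) and in 2.51% of all windows. The letters CTTCCG, the core of the ETS-family motif, stood on either strand in 20 of 37 member windows (54.1%), against 16.9% of all windows. The letters ATGGCG, the core of the YY1 motif, were in 15 (40.5%), against 8.93%. The TATA box letters TATAAA were in 4 (10.8%), against 13.6%. Motifs were counted separately and may overlap, several windows of a gene share sequence, and a match is a description of the letters only.

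The arrays behaved as labelled for the mutated gene. Wnt4, the secreted signal that the allele removes, had signals of 74.2 and 34.5 on the mutant arrays and of 829, 739, 946 and 699 on the wild-type arrays (difference -3.59 ± 0.24 SE, adjusted p = 6.11e-05). Array medians lay between 172.7 and 191.0. Of 14 markers of the embryonic kidney on the array, 13 were tested. Cited1, Lhx1 and Pax8 (3) were lower, and Foxd1 (1) was higher. The called share was 30.8% of the tested kidney markers, against 10.8% of all kept probe sets. Foxd1 had 4692 and 4749 on the mutant arrays and 1456, 1528, 1405 and 1199 on the wild-type arrays. Summed signals were 14676 to 15187 on the mutant and 12414 to 14217 on the wild-type arrays, and the mutant sums were the higher ones only through Foxd1. Of 12 erythroid markers, 9 were tested. The globin genes Hbb-bh1, Hba-x and Hbb-y (3) were higher and Car2 (1) was lower. The called share was 44.4% of the tested erythroid markers, against 10.8% of all kept probe sets. Hbb-bh1 was above the filter level on the 2 mutant arrays only, so it was tested only because it was high there. Over the 9, 5 differences were above 0 and 4 below. Sums were 39138 to 40145 on the mutant and 23972 to 32128 on the wild-type arrays, a gap that came mostly from Hbb-y and Hba-x. The brightest marker, Hba-a1, had a difference of -0.00393, so the sums do not stand for the list as a whole. Of 17 skeletal muscle markers, 12 were tested. Of these, 7 were higher and none lower, while 371 of 7981 kept probe sets (4.65%) were higher. Sums were 6831 to 7328 on the mutant and 2130 to 2941 on the wild-type arrays. Tnnc1, with the largest difference (2.76), passed the filter only through its 2 mutant arrays, so its call gives no separate support. With mutant replicate 1 or mutant replicate 2 left out, Tnnc1 was not tested. The muscle count was 3 without mutant replicate 1, 3 without mutant replicate 2 and 5 to 9 with 1 wild-type array left out. No probe set was listed at 0 on any array, and the lowest signal was 0.21. The amount of muscle and erythroid cells in the pools was not tested, and neither was their part in the ribosomal protein signals. In whole kidneys, fewer cells of a type and less RNA per cell cannot be told apart.

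Of the 35 ribosomal protein genes, 26 passed the filter on low signals, 12 of the large and 14 of the small subunit, and 3 of these differed between mutant and wild type. Rps4l and Rpl22 were higher in the mutant and Rps19 was lower. Differences are mutant minus wild type on the log2(signal + 16) scale, tested with limma over all 7981 kept probe sets, and a gene was called at an adjusted p below 0.05. The 3 calls are 11.5% of the tested members, against 10.8% of all kept probe sets (371 higher, 4.65%, and 488 lower, 6.11%), so the members were called about as often as the rest of the array. For 9 of 26 members (34.6%) both mutant arrays lay above all wild-type arrays or below all of them, as they did for 37.4% of all kept probe sets. The median difference of the tested members was -0.12, and that of all kept probe sets 0.02. Differences were below 0 for 20 members and above 0 for 6, and the middle of them, between the quartiles, ran from -0.17 to -0.01. Over all 35 members without the filter, the median was -0.07.

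**Figure D1:**
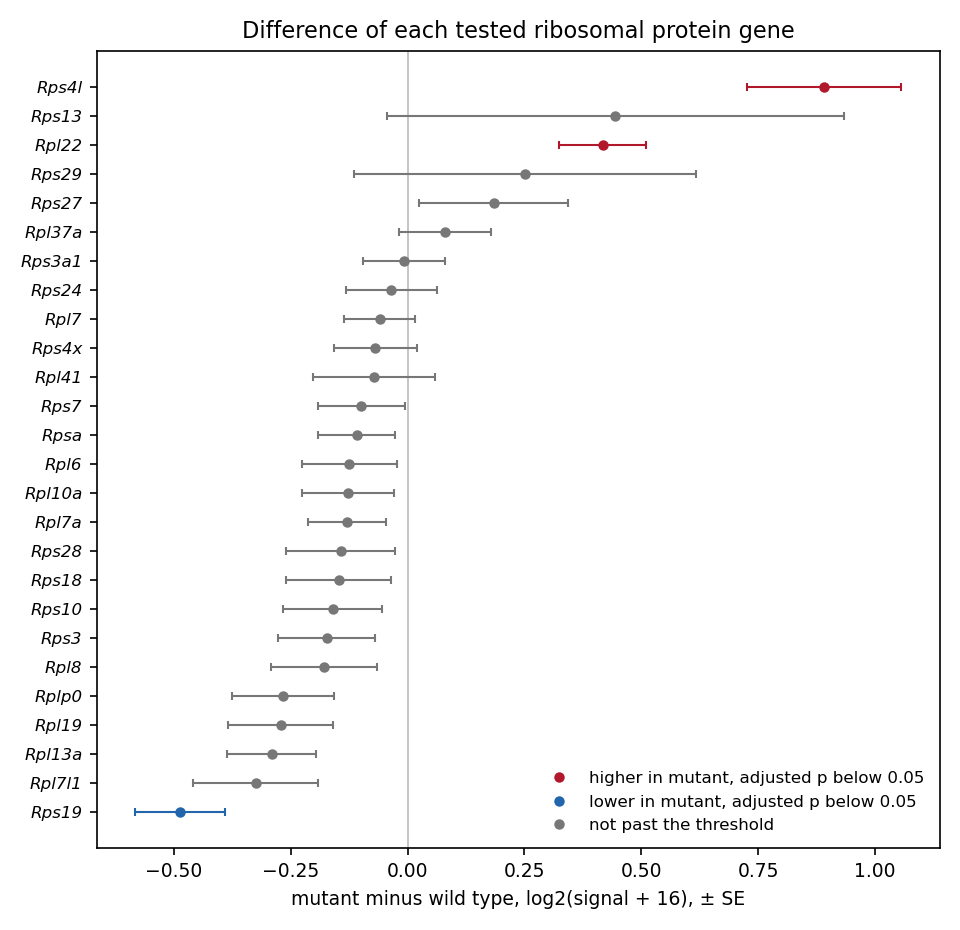
Difference between mutant and wild type for each of the 26 tested ribosomal protein genes, on the log2(signal + 16) scale (horizontal axis), with its SE. Rps4l and Rpl22 (higher) and Rps19 (lower) are coloured as past the adjusted p threshold; most of the other points lie a little left of 0.

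Rps19, a small subunit protein needed for maturation of the small subunit's RNA and the gene most often mutated in Diamond-Blackfan anaemia in humans, had signals of 11197 and 12875 on the mutant arrays. On the wild-type arrays it had 16836, 18112, 15338 and 17103. The groups did not overlap, with means of 12036 ± 1187 (SD, n = 2) in the mutant and 16847 ± 1146 (SD, n = 4) in the wild type. The difference was -0.49 ± 0.10 (SE, adjusted p = 0.0141). It was the only called member among the 19 bright ones, those with a mean log2 value above 12.

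Rpl22, a large subunit protein that binds RNA and is known for its part in T cell development in mice, went the other way. Its signals were 1942 and 1765 on the mutant arrays and 1401, 1295, 1449 and 1391 on the wild-type arrays. Both mutant pools were above all 4 wild-type pools, with means of 1854 ± 125 (SD, n = 2) in the mutant and 1384 ± 64.3 (SD, n = 4) in the wild type, and the difference was 0.42 ± 0.09 (SE, adjusted p = 0.0246). The other Rpl22 probe set disagreed. It was dim, above the filter level on 3 wild-type arrays only, with 27.8 and 62.1 on the mutant arrays and 115, 150, 48.2 and 124 on the wild-type arrays, and its difference of -1.02 ± 0.50 (SE) did not pass (adjusted p = 0.234). Averaged over both probe sets, the Rpl22 difference was -0.30 (adjusted p = 0.381).

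Rps4l, named as an S4-like copy of the X-linked small subunit gene Rps4x, had the largest difference of the tested members. Its signals were 2021 and 2132 on the mutant arrays and 1224, 891, 1010 and 1385 on the wild-type arrays. The groups did not overlap, and the difference was 0.89 ± 0.16 (SE, adjusted p = 0.0101). Its probe set carries the Affymetrix suffix for probes shared by several transcripts, so its signal may include another transcript. A second, dim Rps4l probe set, which did not pass the filter, had 81.1 and 107 on the mutant arrays and 61.5, 58.3, 62.8 and 54.9 on the wild-type arrays, so the mutant pools were above the wild-type pools there too. Rps4x itself had 19323 and 18895 on the mutant arrays and 18785, 21768, 18866 and 20901 on the wild-type arrays, with overlapping groups and a difference of -0.07 (adjusted p = 0.683).

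All 3 calls rest on both mutant pools. Without mutant replicate 1, the adjusted p was 0.177 for Rps19, 0.226 for Rpl22 and 0.0739 for Rps4l. Without mutant replicate 2, it was 0.0525, 0.105 and 0.103 in the same order, and in both fits the remaining mutant pool was assumed to vary like the wild type. Rpl22 also missed the threshold without wild-type replicate 1 (adjusted p = 0.0544), and Rps19 and Rpl22 missed it when the variance trend was left out (adjusted p = 0.0667 and 0.0714). The direction of the 3 differences was the same in each of these fits.

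**Figure D2:**
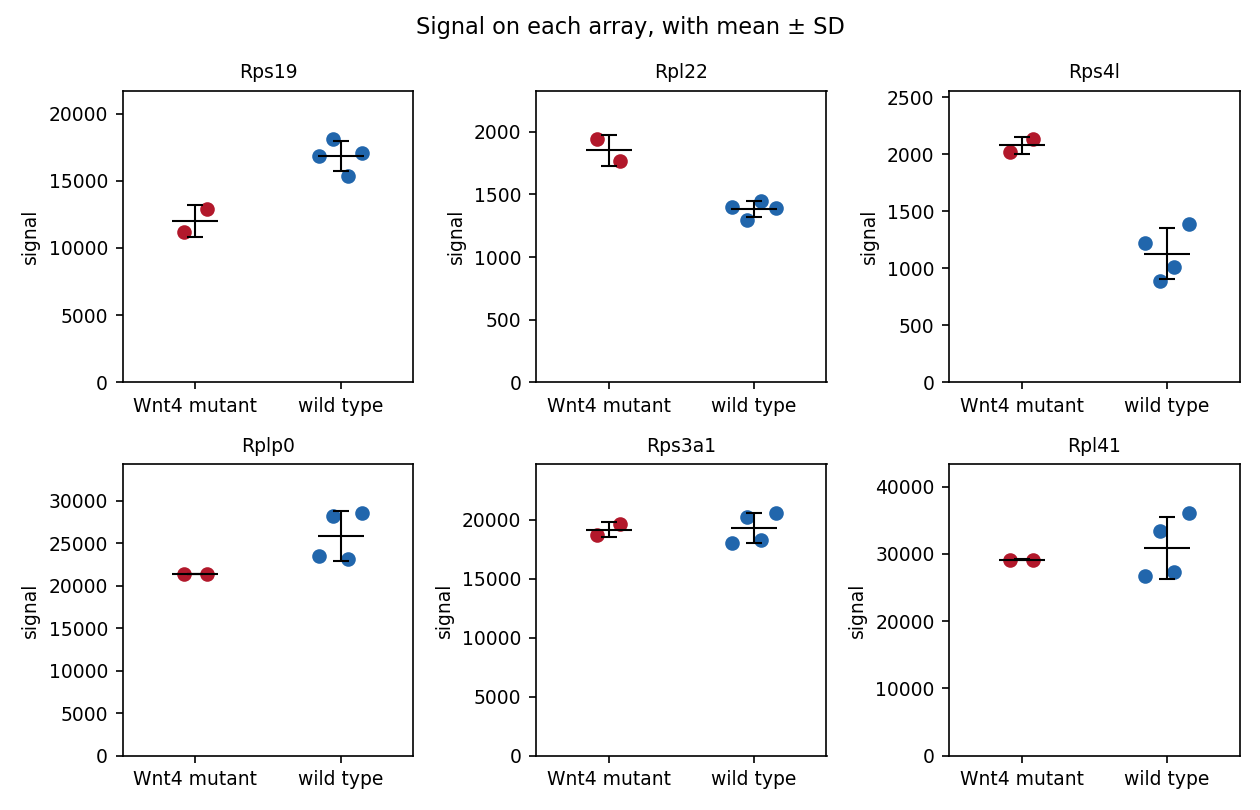
Signal (linear, vertical axis from 0) of 6 ribosomal protein genes on each Wnt4 mutant and wild-type array, 1 point per array, with the mean ± SD of 2 mutant and 4 wild-type arrays. Rps19, Rpl22 and Rps4l separate the groups; Rps3a1 and Rpl41 overlap, and their wild-type points, like those of Rplp0, fall into a lower and an upper pair.

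Among the large subunit genes, Rpl22 alone was called, and 10 of 12 differences were below 0 (median -0.13). Rplp0, the base of the stalk that recruits elongation factors to the ribosome, had 21410 and 21383 on the mutant arrays. On the wild-type arrays it had 23497, 28218, 23188 and 28589. Both mutant pools were below the wild-type pools, but the difference of -0.27 ± 0.11 (SE) did not pass (adjusted p = 0.158). Rpl13a, also known in human cells as part of a complex that silences inflammatory messages, had 3225 and 3166 on the mutant arrays and 3619, 4374, 3963 and 3735 on the wild-type arrays. These groups did not overlap either, and the difference was -0.29 (adjusted p = 0.0890). Rpl13a passed only with limma's array weights, of the alternatives tried (-0.28, adjusted p = 0.0432).

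Rpl19, a large subunit protein with a long tail that reaches toward the small subunit, had 17338 and 15948 on the mutant arrays and 17508, 21500, 19145 and 22506 on the wild-type arrays. The mutant pools lay just below the lowest wild-type pool, and the difference was -0.27 (adjusted p = 0.161). Rpl7l1, a paralogue of Rpl7, averaged 380 ± 23.3 (SD, n = 2) in the mutant and 481 ± 39.8 (SD, n = 4) in the wild type, again without overlap (difference -0.32, adjusted p = 0.159). Rpl8, which lies by the catalytic centre, was also below the wild-type range (difference -0.18, adjusted p = 0.370).

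The remaining large subunit genes overlapped between the groups. Rpl41, which encodes the smallest ribosomal protein, had 29160 and 29136 on the mutant arrays and 26698, 33448, 27321 and 36134 on the wild-type arrays. Its mutant pools stood between the lower and the upper pair of wild-type pools (difference -0.07, adjusted p = 0.775). Rpl7a (-0.13, adjusted p = 0.378), Rpl10a, a protein of the stalk at the exit site (-0.13, adjusted p = 0.465), Rpl6 (-0.12, adjusted p = 0.498) and Rpl7 (-0.06, adjusted p = 0.679) had differences below 0. Rpl37a, a zinc-binding subunit, had a difference of 0.08 (adjusted p = 0.664).

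Among the small subunit genes, Rps4l was called higher and Rps19 lower, and 10 of 14 differences were below 0 (median -0.08). Rpsa, known also as the laminin receptor, averaged 5736 ± 100.05 (SD, n = 2) in the mutant and 6194 ± 340.0 (SD, n = 4) in the wild type. Its mutant pools were below the wild-type range, with a difference of -0.11 (adjusted p = 0.457). Rps3, which lines the channel where messenger RNA enters (-0.17, adjusted p = 0.340), Rps10 (-0.16, adjusted p = 0.388), Rps18 of the subunit's head (-0.15, adjusted p = 0.462) and Rps7, which binds the p53 inhibitor Mdm2 (-0.10, adjusted p = 0.557), overlapped between the groups.

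The smallest differences belonged to Rps3a1, Rps24 and Rpl7. Rps3a1, a subunit that also contacts initiation factors, had 18695 and 19637 on the mutant arrays and 18063, 20234, 18314 and 20609 on the wild-type arrays, a difference of -0.01 (adjusted p = 0.965). Rps24, another gene mutated in Diamond-Blackfan anaemia, averaged 21853 ± 25.3 (SD, n = 2) in the mutant and 22450 ± 2102 (SD, n = 4) in the wild type, a difference of -0.03 (adjusted p = 0.859). The Rps24 probe set is marked as made under relaxed design rules and was designed from the same sequence entry as the Rpl7 probe set, so these signals may not be separate.

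The spread among wild-type pools was largest for 3 small subunit genes. Rps13 had an SD of 0.72 on the log2 scale over the wild type. It had 95.3 and 167 on the mutant arrays and 48.9, 55.6, 155 and 136 on the wild-type arrays, and was above the filter level on 3 arrays (difference 0.44, adjusted p = 0.624). Rps29, a zinc-binding subunit, had a wild-type SD of 0.55, with 195 and 141 on the mutant arrays and 200.5, 183, 120 and 77.8 on the wild-type arrays (difference 0.25, adjusted p = 0.718). The SD of Rps4l was 0.28. Rps27, another zinc-binding subunit, overlapped between the groups as well (difference 0.18, adjusted p = 0.519). Over all tested members the median wild-type SD was 0.14, against 0.19 over all kept probe sets.

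Array by array, the medians that stood apart were those of wild-type replicates 2 and 4. Expressed as the median deviation of the 26 members from their own mean over the 6 arrays, mutant replicates 1 and 2 were both at -0.07. Wild-type replicates 1 to 4 were at -0.08, 0.14, -0.07 and 0.14. The mutant arrays thus lay beside wild-type replicates 1 and 3, and replicates 2 and 4 lay above all other arrays, though not for every gene. The medians spanned 0.22 over the 6 arrays, and their SD over the wild type was 0.12, about as large as the members' median difference between the groups.

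**Figure D3:**
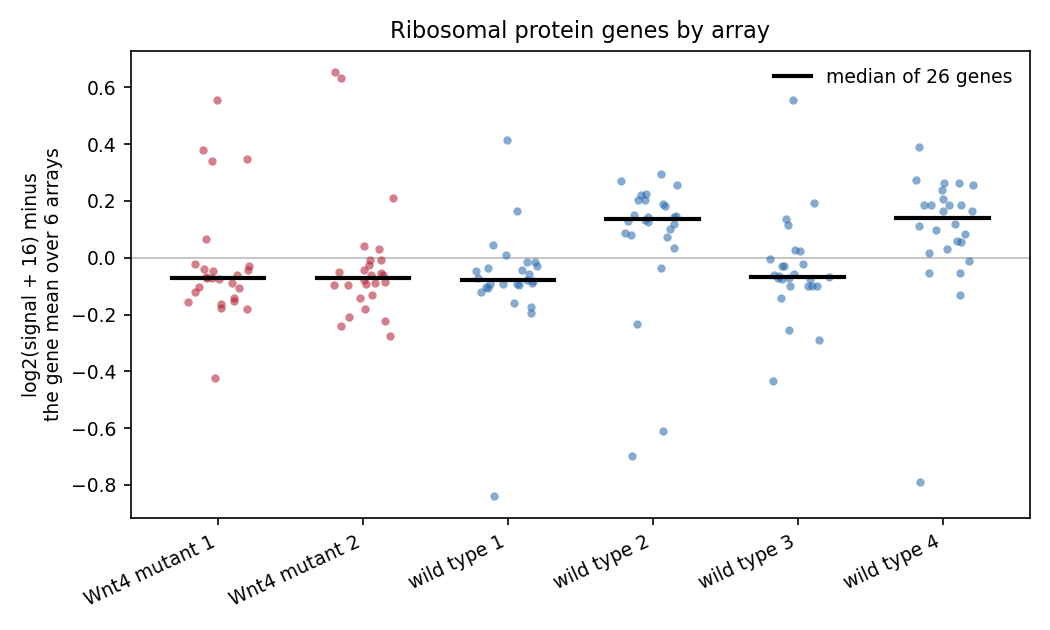
Deviation of each of the 26 tested ribosomal protein genes from its mean over the 6 arrays, on the log2(signal + 16) scale (vertical axis), by array, with mutant arrays to the left and the median as a bar. The medians of wild-type replicates 2 and 4 are at 0.14, and those of the other 4 arrays between -0.08 and -0.07.

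Gene by gene, the bright members carried this order. Wild-type replicates 2 and 4 were picked because the medians of these same members were highest there. The member counts below therefore follow in part from that choice and are no test. Replicates 2 and 4 were both above replicates 1 and 3 for 15 of 26 members (57.7%), against 1328 of 7981 kept probe sets (16.6%). Among the 19 bright members it was 15, against 137 of the 300 other probe sets with a mean log2 value above 12 (45.7%), a brightness limit chosen after the data were seen. None of the 7 dimmer members, Rpl22, Rps4l, Rps13 and Rps29 among them, showed it. Both mutant arrays were below replicates 2 and 4 for 18 of the 26 members, against 2104 of 7981 kept probe sets. Both lay within the wild-type range for 8 of the 26, against 2455 of 7981, and a gene can count in both. The bright members had array medians of -0.08 and -0.08 in the mutant and of -0.08, 0.14, -0.06 and 0.17 in wild-type replicates 1 to 4. The 300 other bright probe sets had -0.04 and -0.05 in the mutant and -0.02, 0.07, -0.02 and 0.09 in wild-type replicates 1 to 4, the same pattern at a smaller size. Over all kept probe sets the array medians stayed between -0.01 and 0.02.

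**Figure D4:**
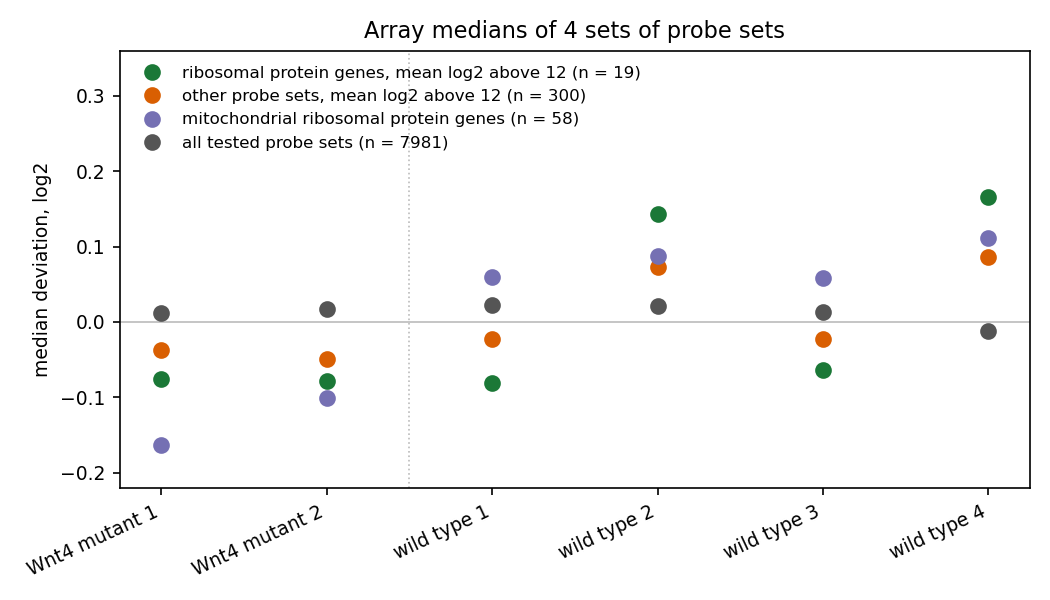
Median deviation of 4 sets of probe sets on each array (vertical axis, log2 scale), with mutant arrays left of the dotted line. The bright ribosomal protein genes and the other bright probe sets are highest on wild-type replicates 2 and 4; the mitochondrial ribosomal protein genes are lowest on the 2 mutant arrays.

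A fit without wild-type replicates 2 and 4 was added after the data were seen. These arrays were left out because their ribosomal protein medians were the highest, so the members' median difference near 0 in it (-0.00182) and the small span of array medians (0.0123) follow from that choice. The same 3 genes were called in it: Rps19 (-0.42, adjusted p = 0.0204), Rpl22 (0.37, adjusted p = 0.0457) and Rps4l (0.89, adjusted p = 0.00469). Quantile normalization gives all arrays the same set of values, which holds the brightest probe sets close together by construction. In part for that reason, it gave a median of -0.02 and a span of 0.0496, with the same 3 calls. Centring each array on the median deviation of the ribosomal protein genes moved the median of all kept probe sets to 0.12. Calls over the array were then 323 higher and 214 lower (39.9% lower), against 371 higher and 488 lower (56.8% lower) as deposited. Under that centring Rps19 was still lower (-0.38, adjusted p = 0.0181) and Rps4l higher (1.00, adjusted p = 0.0102), while Rpl22 no longer passed (0.52, adjusted p = 0.0566).

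The Affymetrix control probe sets gave another view of array scaling. The spiked bacterial BioB transcript, added to each sample just before hybridisation, was lower on the mutant arrays at all 3 of its probe sets (-0.86, -0.86 and -0.85, adjusted p = 0.0432 each over 66 controls). At its middle probe set it had 930 and 950 on the mutant arrays and 1676, 1903, 1645 and 1668 on the wild-type arrays. The probe sets of the other spiked transcripts had smaller differences, from -0.39 to -0.14, and none passed. The 3 control probe sets of Gapdh, a glycolytic enzyme used as a reference, had differences of -0.22, -0.24 and -0.31 (adjusted p = 0.502, 0.502 and 0.418). Both mutant arrays were below all wild-type arrays at these 3 too. At the 5′ one, the signals were 20742 and 20070 on the mutant arrays and 23072, 25918, 21675 and 26174 on the wild-type arrays, with wild-type replicates 2 and 4 the highest. The 3 control probe sets of beta-actin, a cytoskeletal reference, did not follow that order. Their differences were 0.55, 0.56 and 0.96 (adjusted p = 0.559, 0.561 and 0.502). At the 3′ one, the signals were 13536 and 13438 on the mutant arrays and 5953, 6722, 10412 and 17467 on the wild-type arrays, so replicate 4 was the highest there and replicate 2 the second lowest. The part of array scaling in these control differences was not tested. Its part in the single calls was not tested beyond the fits above.

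The filter left 9 members untested: Rpl32, Rpl35a, Rpl38, Rpl39, Rpl39l, Rps14, Rps15, Rps20 and Rps27l. Their signals ran from 5.17 to 121 over the 6 arrays, around or under the filter level of 101.1 to 110.4, the 40th percentile of each array, so these probe sets say little about the genes. Rps15, of the subunit's head, had 58.4 and 34.99 on the mutant arrays and 17.2, 7.27, 5.50 and 34.1 on the wild-type arrays. Rps20 had 54.5 and 44.5 on the mutant arrays and 17.6, 13.9, 27.6 and 26.3 on the wild-type arrays. For these 2 genes both mutant arrays were above the wild-type range, at signals below the filter level.

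Further probe sets existed for 10 of the 35 genes, and for 4 of them more than 1 was tested. Rps28, a small subunit protein near the exit channel of messenger RNA, gave opposite differences. Its representative probe set had 18377 and 18599 on the mutant arrays and 18379, 21612, 18453 and 23717 on the wild-type arrays, with a difference of -0.14 (adjusted p = 0.489). A probe set marked as detecting a sequence family had 22759 and 22407 on the mutant arrays and 17028, 19979, 17102 and 19426 on the wild-type arrays. There the mutant pools were above all wild-type pools, and the difference of 0.30 ± 0.09 (SE) missed the threshold (adjusted p = 0.0771). The third Rps28 probe set had a difference of -0.11 (adjusted p = 0.814). A dim Rps4x probe set had 0.16 (adjusted p = 0.920), against -0.07 at the representative one. The second Rpl10a probe set had -0.04 (adjusted p = 0.894), the same sign as the first.

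Another 39 probe sets name several genes, at least 1 of them a ribosomal protein gene, and were kept apart. Of these, 35 were tested, none was higher and 2 were lower (5.71%, against 10.8% over all kept probe sets), with a median difference of -0.09. No gene is named from them here.

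Related gene sets show how the members compare with the rest of the translation machinery. The mitochondrial ribosomal proteins, which build the separate ribosome of mitochondria, had 58 of 61 genes tested, of which 8 were lower and none higher (13.8%, against 10.8% over all kept probe sets). Their median difference was -0.21, with 45 differences below 0 and 13 above. Their array medians were -0.16 and -0.10 in the mutant and 0.06, 0.09, 0.06 and 0.11 in wild-type replicates 1 to 4, so both mutant arrays were below every wild-type array. Whether the cytosolic and mitochondrial sets differ was not tested. Mrps12, a protein of the mitochondrial decoding centre, had 638 and 708 on the mutant arrays and 1136, 1081, 1159 and 1169 on the wild-type arrays (difference -0.74, adjusted p = 0.00185). Mrpl12, the mitochondrial stalk protein, had 1042 and 986 on the mutant arrays and 1581, 1845, 1611 and 1704 on the wild-type arrays (-0.72, adjusted p = 0.00204). Mrpl50 was called at its brightest probe set (-0.80, adjusted p = 0.00457) but not when its probe sets were averaged (-0.39, adjusted p = 0.115). The count of lower genes was 3 without mutant replicate 1 and 3 without mutant replicate 2, it was 5 without wild-type replicate 1 and 5 without replicate 3, with the cytosolic centring it was 3, and without wild-type replicates 2 and 4 it was 7.

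**Figure D5:**
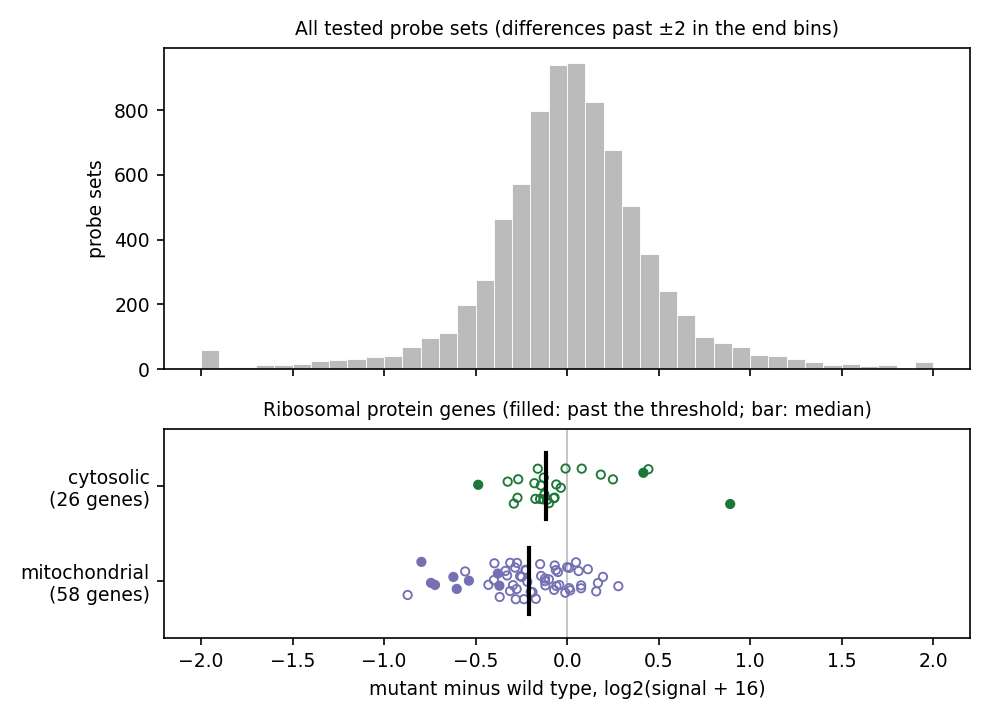
Top, number of kept probe sets (vertical axis) by mutant minus wild-type difference on the log2(signal + 16) scale. Bottom, the same difference for 26 cytosolic and 58 mitochondrial ribosomal protein genes, filled where past the adjusted p threshold, with medians of -0.12 and -0.21 as bars.

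Of 37 tested translation factors, 2 were higher and 3 lower (13.5%, against 10.8% over all kept probe sets), with a median difference of -0.03. Eif4a2, a helicase of the cap-binding complex, was higher (0.82, adjusted p = 0.00148), with 4550 and 4527 on the mutant arrays and 2504, 2257, 2679 and 2855 on the wild-type arrays. Eif2s2, a subunit of the factor that brings the initiator tRNA, was higher as well (0.56, adjusted p = 0.0441). Eif5b, which joins the subunits (-0.77, adjusted p = 0.0164), Eif3b, a core of the scaffold factor (-0.56, adjusted p = 0.00782), and Eif1ax, which helps scan for the start codon (-0.39, adjusted p = 0.0268), were lower. With mutant replicate 1 or mutant replicate 2 left out, none of the 37 was called lower and 1 was called higher. Eif2s2 lost its call in both of these fits (adjusted p = 0.283 and 0.166), without wild-type replicate 1, 2 or 3, under both centrings, with no filter, with no variance trend and with the replicate block. With the ribosomal protein centring 1 of the 37 was lower.

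Of 90 tested genes of ribosome biogenesis, the assembly of ribosomes in the nucleolus, 1 was higher and 4 were lower. That is 5.56%, against 10.8% over all kept probe sets, and the median difference was -0.11. Exosc8, a subunit of the RNA exosome, was higher (0.91, adjusted p = 0.0389). Utp18 (-0.63) and Imp4 (-0.56), of the complex that processes the small subunit's RNA, and Nop56 (-0.45), of the box C/D particles that methylate ribosomal RNA, were among the lower ones. A further Utp18 probe set did not pass (0.19, adjusted p = 0.717). With mutant replicate 1 or mutant replicate 2 left out, none of the 90 passed in either direction. Of 14 other genes whose messages start with a pyrimidine tract, such as elongation factors, none passed (median -0.08, differences from -0.31 to 0.20), and 1 was lower without wild-type replicate 3. Of 10 genes commonly used as references, Hprt, a purine salvage enzyme, was lower (-0.70, adjusted p = 0.00165) and the other 9 did not pass (median -0.12). That is 10% called, against 10.8% over all kept probe sets. Without wild-type replicate 4, 2 of the references were lower, and with the replicate block 3 were.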

How the data were processed

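The deposited values are probe set intensities on a linear scale. Per the submitters' processing notes the authors used GCOS, Affymetrix software for scanned arrays. The version and settings are not stated there. Without the lowest and highest 2% of values, the mean of each column lay between 499.9 and 500.0, so the arrays had been scaled to a common level. Per the labels, the RNA had 1 round of amplification with biotin as the label.

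Of 12488 probe sets, 66 were controls. Of the other 12422, 10833 had 1 symbol (10817 updated by gene identifier to the RefSeq table of GRCm38.p6, 16 with an older name), 396 had several and 1193 were unnamed here. Where a gene had several probe sets, the one brightest on average (log2) stood for it. Probe sets above the 40th percentile of their own array on at least 2 arrays were kept (7981). Values were analysed as log2(signal + 16), which understates changes of dim probe sets, with limma 3.58.1 under R 4.3.3 (lmFit, eBayes with a variance trend, no covariate). P-values were adjusted by Benjamini-Hochberg over all kept probe sets, with a threshold of 0.05. The fit was also run on simulated arrays with known shifts and independent noise. That checks the code only, because shared array shifts and unequal pool sizes were not simulated. Control probe sets were fitted apart, without the trend. The number of arrays, 2 against 4, limits the precision, and p-values measure the spread between these pools.

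The member genes and gene lists were chosen with earlier results of these data known. Members are named where called, where the naming rule lists their symbol, where probe sets disagreed, or for the smallest differences, the largest wild-type SD or paralogy; the other tested members are given by their difference. From each list up to 3 called genes per direction are named. Alternatives covered offset, filter, normalization, probe set choice, core subunits, variance trend, array weights, replicate number as a block, and each array left out. With the replicate block, the difference rests only on mutant and wild-type arrays of the same number.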

Additional observations from a re-analysis of the deposited data

How the results depend on the processing

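Counts over all kept probe sets (371 higher, 488 lower) were 613 and 738 with array weights, and 323 and 214 with arrays centred on the ribosomal protein genes. Leaving out 1 array at a time gave 114 to 448 higher and 188 to 553 lower, the fewest without a mutant array (133 and 198 without replicate 1, 114 and 188 without replicate 2), and 320 lower without wild-type replicate 1. Ribosomal protein calls (2 higher, 1 lower) became 1 higher with core subunits only, with probe sets averaged per gene, with no variance trend and with the ribosomal protein centring. The lower count was 2 with array weights and 0 with no variance trend. With 1 array left out there were 0 to 2 higher and 0 to 1 lower, and none with either mutant array left out. The median difference then ran from -0.14 to -0.07 and the span of array medians from 0.21 to 0.23; the span was 0.346 with arrays centred on their median, 0.0496 with quantile normalization and 0.0123 without wild-type replicates 2 and 4. Under the ribosomal protein centring the span is 0 by construction and was not scored. With quantile normalization the span is in part held small by construction.

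Of 466 member results under alternatives, 427 kept their direction and side of the threshold, 10 lost the threshold, 1 gained it and 28 changed sign. Only Rpl22 changed sign among the called genes, to -0.30 with probe sets averaged. The others had small or noisy differences. With the ribosomal protein centring, Rpl41 was 0.032, Rpl7 0.045, Rps24 0.070, Rps3a1 0.0955, Rps4x 0.035 and Rps7 0.0053. With quantile normalization, Rpl7 was 0.069, Rps24 0.084, Rps3a1 0.0985, Rps4x 0.032 and Rps7 0.026. Without wild-type replicates 2 and 4, Rpl41 was 0.11, Rps24 0.028, Rps28 0.0056, Rps3a1 0.075 and Rps4x 0.021. With probe sets averaged, Rps28 was 0.017 and Rps4x 0.045; with array weights, Rps3a1 was 0.020. Leaving out 1 array gave -0.044 to 0.027 for Rps3a1, -0.064 to 0.030 for Rps24, -0.14 to 0.0072 for Rpl41 and -0.035 to 0.40 for Rps27. The cause was not tested.

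Groups shared replicate numbers 1 and 2. With the number as a replicate block, wild-type arrays of any other number had a block to themselves and did not enter the difference. The block fit thus compared mutant with wild-type replicates 1 and 2 only, paired by number, and is no check over all wild-type arrays. In it, 341 probe sets were higher and 362 lower, and the same 2 and 1 ribosomal protein genes were called. The median of the ribosomal protein genes was -0.11, Rps29 was -0.19 and Rps3a1 0.00323. Deviations of same-numbered arrays correlated at 0.00305 and -0.0153. The 2 mutant arrays deviate from their mean by equal and opposite amounts, so both values rest on 1 mutant contrast. Whether same-numbered arrays were handled together cannot be told from them.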

Other observations

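Small nucleolar RNA host genes carry the guides for modification of ribosomal RNA in their introns, and several have a pyrimidine tract at their start. They were listed with the ribosomal genes, and 5 were measured. Of these, 2 were called (40%, against 10.8% over all kept probe sets). Gas5, a noncoding host known to accumulate when growth or translation stops, had signals of 622 and 754 on the mutant arrays and 2871, 2917, 4449 and 4855 on the wild-type arrays (difference -2.39, adjusted p = 3.41e-04 by limma). Both mutant pools were far below all wild-type pools, and a dimmer Gas5 probe set was lower as well (-1.44, adjusted p = 0.0105). Snhg6 went the other way, with 1598 and 1226 on the mutant arrays and 271, 252, 503 and 366 on the wild-type arrays (difference 2.01, adjusted p = 0.00151). Snhg1 (0.31, adjusted p = 0.0597), Snhg5 (0.31, adjusted p = 0.211) and Epb41l4aos (0.27, adjusted p = 0.224) did not pass, and for all 5 genes the mutant signals did not overlap those of the wild type, as for 37.4% of all kept probe sets. Gas5 and Snhg6 were the only 2 called, in each fit that left out 1 array. Genotype, strain label and pool size cannot be told apart for these genes either.

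Of 16 tested genes of the p53 response, which is known to be set off by faulty ribosome assembly, 3 were higher and 1 lower (4 of 16 called, against 10.8% of all kept probe sets). The median difference was 0.29, and 0.19 without wild-type replicate 4; 13 of 16 differences were above 0, against 4182 of 7981. Summed signals were 17452 to 17643 on the mutant arrays and 13244 to 14058 on the wild-type arrays. Ddit4, an inhibitor of mTOR signalling that is also induced by low oxygen, was higher (1.52, adjusted p = 7.80e-04), as were the antiproliferative Btg2 (0.84, adjusted p = 0.00197) and Apaf1, the core of the apoptosome (0.70, adjusted p = 0.00837). Gadd45a, a stress-response gene, was lower (-0.69, adjusted p = 0.0197). The Gadd45a call was lost without mutant replicate 1, without mutant replicate 2, with the replicate block and with the ribosomal protein centring, and without mutant replicate 2 the higher count was 2. No value ties these genes to the ribosomal protein signals.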
